A study of Mus musculus with 12 samples.

Results

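The 43 genes described here encode the machinery of the cell division cycle and of DNA replication: 5 G1 cyclins, 3 CDK inhibitors, 2 E2F transcription factors, 7 subunits of the replication machinery (6 MCM genes and Pcna), 4 enzymes of nucleotide supply, 4 genes for the cyclins of S phase and mitosis and their kinase Cdk1, the proliferation markers Mki67 and Top2a, 6 mitotic kinases and checkpoint genes, 8 spindle and kinetochore genes, and Cdc20 and Ube2c. They were taken by gene symbol from a list of cell cycle genes and make up 43 of the 24562 genes in the count table. All 43 were found and all 43 passed the filter on low counts, after which 12641 genes were tested. RNA was sequenced from the peritoneal macrophages of female mice, phagocytes of the belly cavity. The groups were high fat diet (HFD) with 24 h of LPS, HFD at 0 h, chow with 24 h of LPS, and chow at 0 h, with 3 libraries each. LPS is the bacterial lipopolysaccharide that macrophages sense through TLR4. The sources used here give no strain, genotype, age, length of the diet or LPS dose and say neither whether the cells were resident or elicited nor whether each library came from its own mouse, so the p-values measure the spread between these libraries, which may be technical. No group had 24 h without LPS, and the effects of LPS and of the 24 h themselves cannot be told apart.

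Cells enter the cycle when D-type cyclins with CDK4 or CDK6 and E-type cyclins with CDK2 phosphorylate the retinoblastoma proteins and free the activating E2F factors, which switch on replication genes. The CDK inhibitors p21 (Cdkn1a), p27 (Cdkn1b) and p57 (Cdkn1c) oppose this step, and cyclin A, cyclin B and CDK1 carry the cell through S phase and mitosis. Resident peritoneal macrophages are long-lived, divide slowly and renew themselves in the tissue. Macrophages exposed to LPS are known to slow or leave the cycle. In cycling cells many of the mitotic genes are controlled through CCAAT boxes and a short element called the cell cycle genes homology region (CHR), and many replication genes through E2F sites.

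The promoters show how far these genes share such letters, and 34 of the 43 had one in the RefSeq promoter table for mouse GRCm38.p6, with 250 bases before and 50 bases after the transcription start. The 3 motifs searched, on both strands, were the CHR as TTTGAA, the CCAAT box as CCAAT, and an E2F site as TTT, then 2 bases that are each C or G, then CGC. The CHR was present in 15 of the 34 (44.1%), against 20.2% of the 27025 genes in the table. A CCAAT box was present in 27 of the 34 (79.4%), against 41.1% of all genes. The E2F letters were present in 6 of the 34 (17.6%), against 2.6% of all genes. The groups of genes differed in which motif they held. Among the 18 with roles from S phase to mitosis, 13 had the CHR (72.2%) and 1, Cdk1, had the E2F letters. Among the 10 replication and nucleotide genes, 1 had the CHR (10%) and 4 had the E2F letters (40%), namely Mcm3, Mcm5, Mcm6 and Mcm7. These shares are descriptions of short windows with no test, and a match is not a site shown to be bound.

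The promoters of 6 genes are printed because the results below set these genes against each other: Cdk1 and Ccnb2 (cyclin B2) stand for the mitotic genes, Mcm6 and Pcna for replication, E2f2 and Ccne1 (cyclin E1) for the genes of the G1 to S step. Each runs 5′ to 3′ on the gene's own strand, and capitals mark the 3 motifs (ATTGG is CCAAT on the other strand). For E2f2, which has more than 1 start in the table, the first is shown.
Cdk1 (chr10:69352863-69353162, minus strand): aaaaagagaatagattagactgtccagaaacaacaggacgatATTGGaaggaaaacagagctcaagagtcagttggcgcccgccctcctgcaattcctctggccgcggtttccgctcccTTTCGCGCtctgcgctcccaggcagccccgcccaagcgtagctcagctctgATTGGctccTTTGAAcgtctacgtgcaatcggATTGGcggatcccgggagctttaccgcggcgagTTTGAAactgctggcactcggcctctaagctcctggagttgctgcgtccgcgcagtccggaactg
Ccnb2 (chr9:70421505-70421804, minus strand): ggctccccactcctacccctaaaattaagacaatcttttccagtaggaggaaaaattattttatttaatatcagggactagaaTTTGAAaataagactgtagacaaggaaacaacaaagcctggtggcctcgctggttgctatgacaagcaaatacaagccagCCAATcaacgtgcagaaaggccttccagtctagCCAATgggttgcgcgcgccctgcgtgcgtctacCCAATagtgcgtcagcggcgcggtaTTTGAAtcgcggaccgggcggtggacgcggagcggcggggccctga
Mcm6 (chr1:128359656-128359955, minus strand): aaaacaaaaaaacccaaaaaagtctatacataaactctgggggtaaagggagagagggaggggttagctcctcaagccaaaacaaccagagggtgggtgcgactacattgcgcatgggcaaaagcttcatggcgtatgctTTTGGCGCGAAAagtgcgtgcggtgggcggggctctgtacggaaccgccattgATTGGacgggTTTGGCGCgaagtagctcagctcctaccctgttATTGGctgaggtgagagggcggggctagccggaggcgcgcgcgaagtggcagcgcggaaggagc
Pcna (chr2:132253131-132253430, minus strand): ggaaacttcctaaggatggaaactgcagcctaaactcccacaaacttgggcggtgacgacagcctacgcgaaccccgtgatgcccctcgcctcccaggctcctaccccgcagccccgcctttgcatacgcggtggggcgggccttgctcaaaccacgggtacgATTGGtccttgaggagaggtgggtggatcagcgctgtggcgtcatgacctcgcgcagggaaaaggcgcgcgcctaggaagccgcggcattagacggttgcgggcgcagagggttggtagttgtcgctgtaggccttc
E2f2 (chr4:136172024-136172323, plus strand): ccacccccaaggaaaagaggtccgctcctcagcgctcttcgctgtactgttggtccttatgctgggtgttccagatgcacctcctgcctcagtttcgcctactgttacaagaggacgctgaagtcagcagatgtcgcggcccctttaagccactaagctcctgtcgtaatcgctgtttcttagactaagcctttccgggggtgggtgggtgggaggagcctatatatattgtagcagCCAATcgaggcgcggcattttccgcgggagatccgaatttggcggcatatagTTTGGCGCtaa
Ccne1 (chr7:38107441-38107740, minus strand): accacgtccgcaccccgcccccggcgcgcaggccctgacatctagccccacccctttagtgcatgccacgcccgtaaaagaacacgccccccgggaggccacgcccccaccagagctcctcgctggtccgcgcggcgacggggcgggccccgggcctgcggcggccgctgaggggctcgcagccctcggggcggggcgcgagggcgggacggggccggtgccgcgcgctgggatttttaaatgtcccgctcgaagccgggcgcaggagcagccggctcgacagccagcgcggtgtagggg
Counted from the start of transcription as 0 to the leftmost letter of the motif, Cdk1 had the CHR at -71 and -15 and Ccnb2 at -167 and 4. Mcm6 had E2F letters at -110, -106 and -47, of which the first pair lie on opposite strands and overlap. Pcna had 1 CCAAT box, at -87, and neither of the other motifs. Ccne1 had none of the 3, which says only that these letters are not in this window.

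Libraries held between 2360244 and 20688308 counts on genes. The third HFD library at 0 h was the shallowest, and the next had 9135057 counts. In that library 3 counts equal 1.27 CPM (counts scaled to library size), against 0.145 CPM in the deepest, and Ccnb1 had 0 counts there. These limits cover counting error only. The sum of 8 macrophage markers was lower in every library with LPS, at 10190 to 12710 CPM in HFD with LPS, against 14180 to 15750 CPM in HFD at 0 h, and at 10090 to 11360 CPM in chow with LPS, against 14370 to 15680 CPM at 0 h. The largest part of that sum was Lyz2 (lysozyme), at 4098 to 5533 CPM in HFD with LPS, 9227 to 11040 CPM in HFD at 0 h, 3793 to 4849 CPM in chow with LPS and 9659 to 10150 CPM in chow at 0 h. The list was mixed: within each diet Adgre1, Fcgr1 and Cd14 were higher in every LPS library than in any at 0 h. Adgre1 had 731 to 823 CPM in HFD with LPS, against 180 to 308 CPM at 0 h. In chow it had 525 to 912 CPM with LPS, against 383 to 398 CPM at 0 h. Cd68, Csf1r and Itgam overlapped in both diets, while Mertk was lower with LPS in HFD and overlapped in chow. Gata6, the factor that defines large peritoneal macrophages, had 4.25 to 17.7 CPM. In HFD every LPS library was lower, at 4.248 to 6.658 CPM, against 8.735 to 12.68 CPM at 0 h, and chow overlapped. Timd4, another marker of these cells, was higher in every LPS library of both diets. It had 1.502 to 3.833 CPM in HFD with LPS, against at most 1.223 CPM at 0 h. In chow it had 2.835 to 5.564 CPM with LPS, against 0.4155 to 1.663 CPM at 0 h. Icam2 was higher with LPS in chow only, and Selp and Garnl3 overlapped in both diets. Markers of other blood cells were low, but 3 of the lists moved with LPS. The 7 neutrophil markers summed to 21.2 to 32.8 CPM in HFD with LPS, 11.35 to 13.5 CPM in HFD at 0 h, 25.9 to 52.8 CPM in chow with LPS and 8.47 to 9.88 CPM in chow at 0 h. Nearly all of this was S100a8, while Ly6g was at 0 in all libraries at 0 h and at most 0.196 CPM at 24 h. The 3 eosinophil markers, chiefly Siglecf, summed to 4.31 to 6.01 CPM in HFD with LPS, 13.5 to 23.2 CPM in HFD at 0 h, 3.28 to 4.71 CPM in chow with LPS and 20.5 to 23.2 CPM in chow at 0 h. The 4 dendritic cell markers, chiefly Ccr7, summed to 15.7 to 17.9 CPM in HFD with LPS, 5.20 to 12.4 CPM in HFD at 0 h, 27.3 to 36.1 CPM in chow with LPS and 15.8 to 22.8 CPM in chow at 0 h. Of the 4, Ccr7 alone was higher in every LPS library than in any at 0 h of its diet. Flt3 and Xcr1 overlapped in both diets, while Zbtb46 was lower with LPS in HFD and overlapped in chow. The 5 T and NK cell markers summed to at most 3.88 CPM and the 5 B cell markers to at most 20.1 CPM. A set of 10 mesothelial and stromal markers, none of them at 0, was high and uneven, at 1020 to 1149 CPM in HFD with LPS, 729.6 to 1440 CPM in HFD at 0 h, 1071 to 3146 CPM in chow with LPS and 809.1 to 2558 CPM in chow at 0 h. Within each diet the stromal sums at 24 h and 0 h overlapped. Most of each sum was Col1a1, Col1a2 and Col3a1, and the low mesothelial markers did not all follow it. Lrrn4 and Upk3b were lower in every LPS library of both diets. Lrrn4 had 0.158 to 0.231 CPM in HFD with LPS, against 2.18 to 7.19 CPM at 0 h. In chow it had 0.0655 to 0.746 CPM with LPS, against 0.914 to 4.20 CPM at 0 h. Msln and Krt19 were lower with LPS in chow and overlapped in HFD, and Wt1 overlapped in both. The part of any of these lists in the results was not tested. In such bulk RNA, fewer cells of a type and less RNA per cell cannot be told apart.

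Most of the calls after LPS fell on G1 cyclins, CDK inhibitors and E2F factors, while the listed genes of replication and mitosis mostly did not pass. No test compared these groups of genes. In HFD macrophages 5 of the 43 genes were higher after LPS and 4 lower at an adjusted p under 0.05 (edgeR's quasi-likelihood test with Benjamini-Hochberg adjustment), beside 12.7% of all genes tested higher and 12% lower. In chow macrophages 5 were higher and 3 lower, beside 13.7% of all genes higher and 12.9% lower. In either direction this is 9 and 8 of 43, beside 24.6% of all genes in HFD and 26.6% in chow, so the share of cell cycle genes called was no higher than the background. By role, of the 10 G1 cyclin, CDK inhibitor and E2F genes, 8 changed in HFD and 7 in chow. Of the other 33 genes, 1 changed in each diet, Pcna, which was lower. The median log2 fold change of those 33 was -0.31 in HFD and -0.18 in chow, beside -0.002 and 0 over all genes tested. The same 8 genes were called in both diets with the same sign. The HFD and chow comparisons share no library, but the same model was fitted to all libraries. The p-values of each diet therefore depend in part on the libraries of the other. When each diet was fitted alone, the same 8 genes passed in both, while Cdkn1b in HFD did not. Beside the main test, DESeq2 called 10 of the 43 in HFD and 8 in chow.

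**Figure D1:**
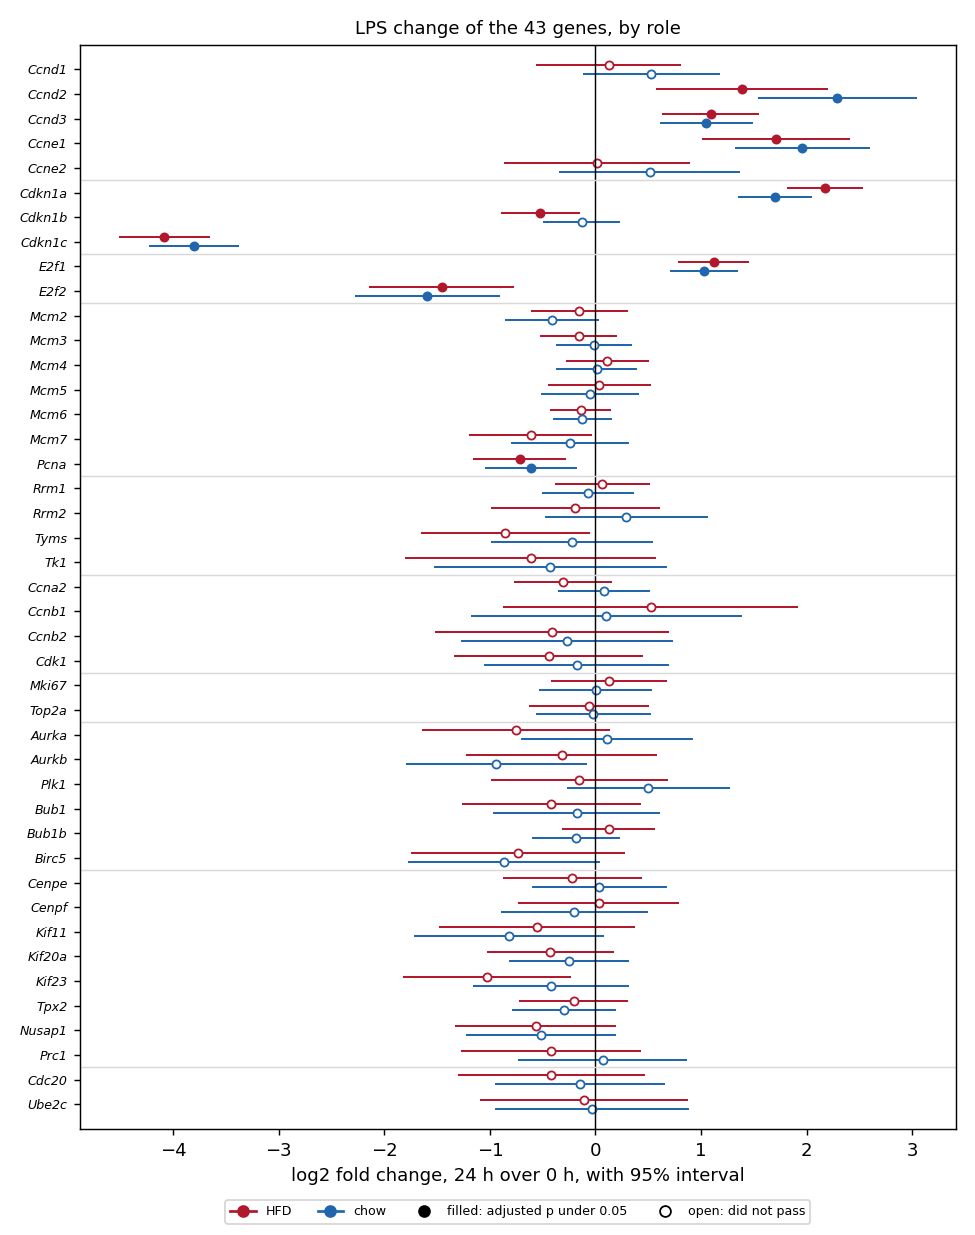
Log2 fold change of each of the 43 genes after 24 h of LPS, over 0 h, with its 95% interval, in HFD and in chow macrophages, grouped by role. Filled points passed an adjusted p of 0.05: they lie among the G1 cyclins, CDK inhibitors and E2F factors, and at Pcna, with the largest shift at Cdkn1c (-4.08 in HFD and -3.80 in chow).

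The CDK inhibitors moved in opposite directions. Cdkn1c encodes p57, an inhibitor expressed from the maternal allele in many quiescent and differentiated cells, and lies on chromosome 7 (143458339 to 143461059, GRCm38). It had 13.1, 18.02 and 13.2 CPM in the 3 HFD libraries with LPS, against 226, 276 and 253 CPM in HFD at 0 h. In chow it had 17.3, 11.4 and 17.4 CPM with LPS, against 195, 193 and 258 CPM at 0 h. Every LPS library lay far below every library at 0 h, with no overlap. Its log2 fold change was -4.08 ± 0.20 in HFD (SE, adjusted p = 1.38e-10) and -3.80 ± 0.20 in chow (adjusted p = 2.61e-10), the largest of the 43 in size in both diets.

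Cdkn1a encodes p21, which is induced by p53 and by several other stress and inflammatory signals, and lies on chromosome 17 (29090979 to 29100722). It had 253.5, 275.5 and 249 CPM in HFD with LPS, against 58.1, 69.4 and 41.3 CPM in HFD at 0 h. Chow macrophages gave 271, 269 and 286 CPM with LPS, against 75.7, 77.2 and 100.5 CPM at 0 h. The LPS libraries of both diets formed a narrow band above all libraries at 0 h. It rose by a log2 fold change of 2.17 ± 0.17 in HFD (adjusted p = 3.25e-08) and of 1.70 ± 0.16 in chow (adjusted p = 3.84e-07).

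Per length of transcript the order of these inhibitors was turned round. With LPS, Cdkn1a stood at 135.5 ± 7.5 RPKM (CPM per kilobase of transcript; SD, n = 3) in HFD and 144 ± 5.0 RPKM in chow, and Cdkn1c at 7.84 ± 1.5 and 8.14 ± 1.8 RPKM. At 0 h Cdkn1a stood at 29.4 ± 7.4 RPKM in HFD and 44.2 ± 7.3 RPKM in chow, and Cdkn1c at 133 ± 13 and 114 ± 20 RPKM. Cdkn1a was thus the more abundant of this pair in all 6 libraries with LPS, and Cdkn1c in all 6 at 0 h.

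Cdkn1b encodes p27, an inhibitor of cyclin E and CDK2 that is high in resting cells and is mainly controlled through protein breakdown. It had 19.6, 30.4 and 21.2 CPM in HFD with LPS, against 33.3, 38.5 and 29.6 CPM at 0 h, and the groups overlapped in 1 library each. The chow libraries held 28.6, 26.7 and 25.9 CPM with LPS, against 29.4, 28.2 and 31.4 CPM at 0 h. It fell in HFD, with a log2 fold change of -0.52 ± 0.17 (adjusted p = 0.0345), and stood at -0.13 ± 0.17 in chow (adjusted p = 0.634). The difference between the diets was -0.39 on the log2 scale and did not pass the test (adjusted p = 1). The HFD call was held in 11 of 23 alternative settings and samples, so it is the least firm of the 9.

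**Figure D2:**
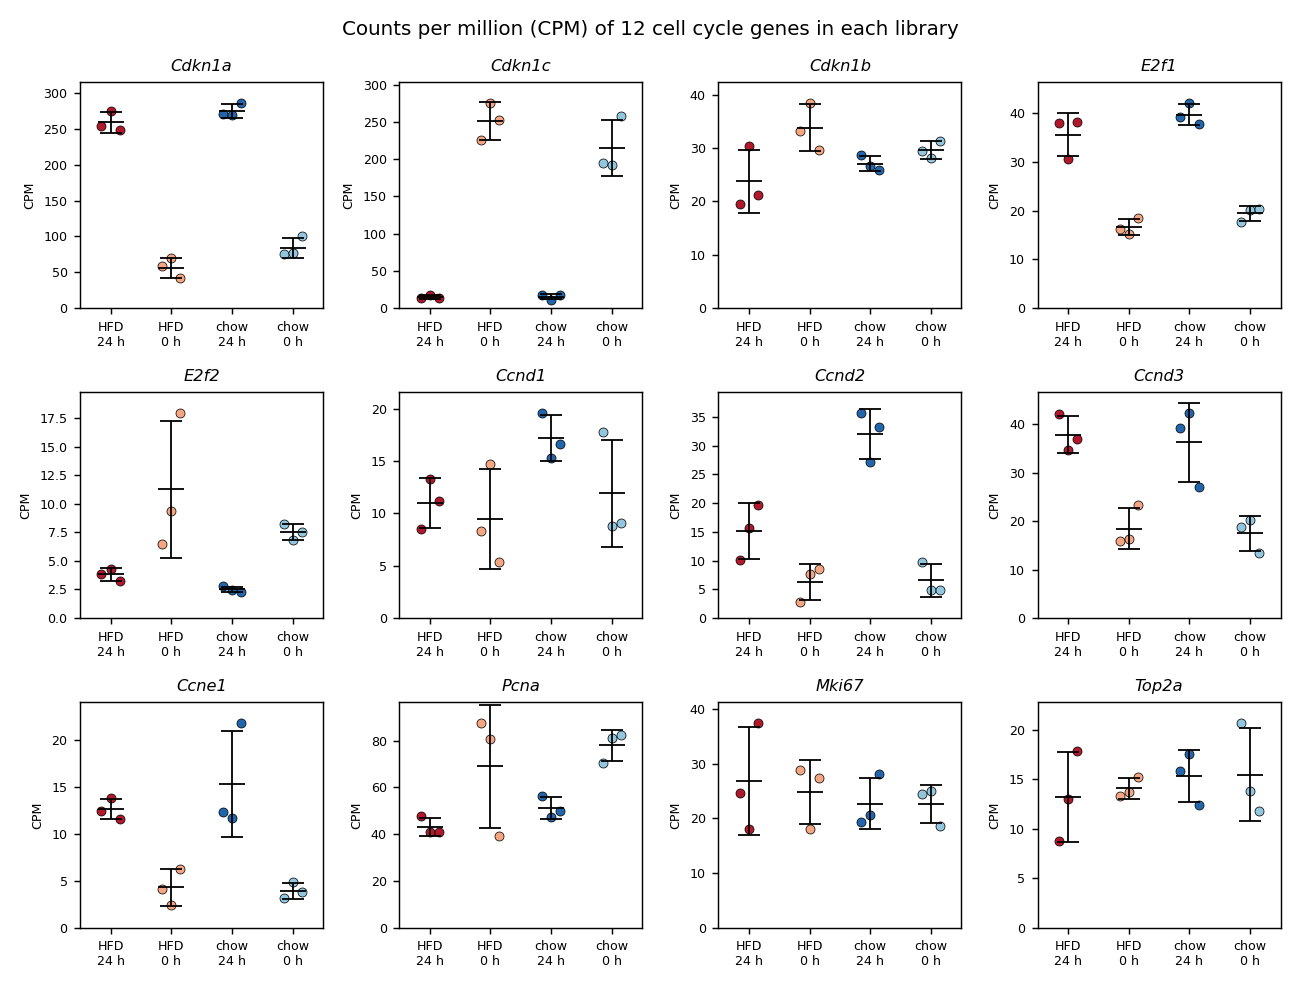
CPM of 12 genes in each of the 12 libraries, from an axis that starts at 0, with the mean and SD of each group. Groups run HFD with LPS, HFD at 0 h, chow with LPS and chow at 0 h: Cdkn1a is high and Cdkn1c low in all 6 libraries with LPS, while Mki67 and Top2a overlap between the groups.

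The G1 cyclins were higher after LPS where they changed. Ccnd2 encodes cyclin D2, a partner of CDK4 and CDK6. It had 10.04, 15.7 and 19.6 CPM in HFD with LPS, against 2.70, 7.67 and 8.54 CPM in HFD at 0 h. In chow macrophages it showed 35.7, 27.2 and 33.3 CPM with LPS, against 9.82, 4.86 and 4.90 CPM at 0 h. In both diets all LPS libraries were above all libraries at 0 h, by a narrow gap in HFD and a wide one in chow. The log2 fold change was 1.39 ± 0.38 in HFD (adjusted p = 0.0128) and 2.29 ± 0.35 in chow (adjusted p = 0.000105). In HFD the call was lost without the first library at 0 h (log2 fold change 0.94, adjusted p = 0.0772) or the third with LPS (1.18, adjusted p = 0.058).

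Ccnd3, cyclin D3, had 42.1, 34.6 and 36.9 CPM in HFD with LPS, against 15.8, 16.2 and 23.4 CPM at 0 h. In chow it had 39.3, 42.4 and 27.1 CPM with LPS, against 18.9, 20.2 and 13.4 CPM at 0 h. The groups did not overlap in either diet, and the log2 fold change was 1.09 ± 0.21 in HFD (adjusted p = 0.000906) and 1.05 ± 0.20 in chow (adjusted p = 0.00077). Ccne1, cyclin E1, binds CDK2 at the start of S phase. It had 12.5, 13.8 and 11.6 CPM in HFD with LPS, against 4.16, 2.45 and 6.29 CPM at 0 h. Chow macrophages gave 12.4, 11.8 and 21.9 CPM with LPS, against 3.17, 4.86 and 3.82 CPM at 0 h. Again no library with LPS was as low as any at 0 h, and the log2 fold change was 1.71 ± 0.33 in HFD (adjusted p = 0.000737) and 1.96 ± 0.30 in chow (adjusted p = 7.97e-05).

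The remaining G1 cyclins did not pass. Ccnd1, cyclin D1, had 8.46, 13.3 and 11.2 CPM in HFD with LPS, against 8.32, 14.7 and 5.39 CPM at 0 h. Its log2 fold change in HFD was 0.13 (adjusted p = 0.824), and the groups overlapped. The chow libraries held 19.6, 15.3 and 16.6 CPM with LPS, against 17.8, 8.83 and 9.06 CPM at 0 h (0.53, adjusted p = 0.226). The first chow library at 0 h, which stood apart for Ccnd1, also had the highest stromal marker sum of its group, at 2558 CPM, and the part of those cells was not tested. Without that library Ccnd1 passed the test in chow. Ccne2, cyclin E2, stood at a log2 fold change of 0.02 in HFD and 0.51 in chow. Per length of transcript, Ccnd3 was the highest D-type cyclin in every group, at 19.2 ± 1.9 RPKM in HFD with LPS, 9.34 ± 2.1 RPKM in HFD at 0 h, 18.4 ± 4.1 RPKM in chow with LPS and 8.84 ± 1.8 RPKM in chow at 0 h.

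The E2F factors moved apart. E2f1, an activating E2F that drives entry into S phase and also regulates inflammatory and apoptotic genes, had 38.1, 30.6 and 38.2 CPM in HFD with LPS, against 16.3, 15.1 and 18.4 CPM at 0 h. In chow macrophages it showed 39.2, 42.1 and 37.9 CPM with LPS, against 17.7, 20.2 and 20.4 CPM at 0 h. The libraries were closely grouped and did not overlap, and E2f1 rose by 1.122 ± 0.16 in HFD (log2, adjusted p = 3.15e-05) and by 1.03 ± 0.15 in chow (adjusted p = 4.16e-05). E2f2, an activating E2F as well, had 3.87, 4.31 and 3.23 CPM in HFD with LPS, against 6.45, 9.34 and 17.97 CPM at 0 h. In chow it had 2.76, 2.42 and 2.29 CPM with LPS, against 8.24, 6.81 and 7.56 CPM at 0 h. The third HFD library at 0 h, the shallowest, was the highest of all, but no LPS library reached any at 0 h. E2f2 fell by 1.46 ± 0.32 in HFD (log2, adjusted p = 0.00236) and by 1.59 ± 0.32 in chow (adjusted p = 0.00111). E2f1 rather than E2f2 had the higher level per length of transcript in every group, with 12.9 ± 1.6 RPKM in HFD with LPS, 6.03 ± 0.61 in HFD at 0 h, 14.4 ± 0.79 in chow with LPS and 7.07 ± 0.55 in chow at 0 h.

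A tag in the library names (L008) was carried by all 3 chow libraries with LPS, by 1 HFD library with LPS and by none at 0 h. What the tag marks is not stated, and in chow it cannot be told apart from LPS except through the HFD libraries. With it as a covariate, Ccnd3 (log2 fold change 0.82, adjusted p = 0.182), E2f2 (-1.64, adjusted p = 0.0857) and Pcna (-0.82, adjusted p = 0.18) no longer passed in chow, and Ccnd2 in chow moved to 3.11. In HFD only Cdkn1b was lost with this covariate (adjusted p = 0.123).

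Most genes of DNA replication did not pass the test. The exception was Pcna, the sliding clamp that holds DNA polymerase on its template and also serves in DNA repair, on chromosome 2 (132249286 to 132253180). It had 47.6, 41.0 and 41.0 CPM in HFD with LPS, against 87.8, 80.5 and 39.1 CPM in HFD at 0 h. Chow macrophages gave 56.4, 47.3 and 49.9 CPM with LPS, against 70.3, 81.3 and 82.4 CPM at 0 h. The chow groups did not overlap, whereas in HFD the third library at 0 h, the shallowest, lay below all 3 libraries with LPS. The log2 fold change was -0.72 ± 0.20 in HFD (adjusted p = 0.0155) and -0.61 ± 0.20 in chow (adjusted p = 0.0337). Pcna was lost as a call in chow in 6 of 23 alternatives and in HFD without either of 2 libraries at 0 h or either of 2 with LPS, so its calls are close to the threshold.

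The MCM genes encode the ring-shaped helicase that unwinds DNA at replication origins, and none of the 6 passed the test in either diet. Mcm5 had 12.97, 9.06 and 9.51 CPM in HFD with LPS, against 8.32, 10.7 and 12.6 CPM at 0 h. The chow libraries held 9.77, 11.9 and 9.30 CPM with LPS, against 12.04, 10.9 and 9.22 CPM at 0 h. The groups were interleaved, and the log2 fold change was 0.04 in HFD (95% interval -0.44 to 0.52) and -0.06 in chow (-0.51 to 0.40). The narrowest interval was that of Mcm6, with -0.14 in HFD (-0.42 to 0.14) and -0.13 in chow (-0.40 to 0.14). Mcm3, which like Mcm5, Mcm6 and Mcm7 holds the E2F letters in its promoter window, stood at -0.16 in HFD and -0.01 in chow. Mcm7 lay lowest of the MCM genes in HFD, at -0.61 (adjusted p = 0.114), and Mcm2 in chow, at -0.41 (adjusted p = 0.166).

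Genes of nucleotide supply did not pass either. Rrm2 encodes the cell cycle-regulated subunit of ribonucleotide reductase, which makes deoxynucleotides. It had 5.93, 4.48 and 5.26 CPM in HFD with LPS, against 5.82, 5.34 and 7.19 CPM at 0 h. In chow macrophages it showed 4.62, 6.82 and 4.52 CPM with LPS, against 6.18, 5.10 and 1.66 CPM at 0 h. The groups overlapped, and the log2 fold change was -0.19 in HFD (-0.98 to 0.60) and 0.29 in chow (-0.47 to 1.05). Rrm1, the other subunit, stood at 0.07 in HFD and -0.07 in chow, Tk1 (thymidine kinase) at -0.62 and -0.43, and Tyms (thymidylate synthase) at -0.85 and -0.22. The row used for Tyms was a non-coding transcript record of that gene.

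The markers most used to count dividing cells gave overlapping values in all groups. Mki67, the Ki-67 antigen of cycling nuclei, had 24.7, 18.1 and 37.5 CPM in HFD with LPS, against 28.9, 18.1 and 27.4 CPM at 0 h. In chow it had 19.4, 20.6 and 28.2 CPM with LPS, against 24.5, 24.9 and 18.7 CPM at 0 h. The 3 HFD libraries with LPS alone spanned the values of the other 9, and the log2 fold change was 0.13 in HFD (-0.41 to 0.67, adjusted p = 0.77) and 0.003 in chow (-0.52 to 0.53, adjusted p = 0.995). Top2a, the topoisomerase that untangles chromosomes, had 8.78, 12.98 and 17.9 CPM in HFD with LPS, against 13.3, 13.7 and 15.3 CPM at 0 h. Chow macrophages gave 15.9, 17.6 and 12.4 CPM with LPS, against 20.8, 13.8 and 11.8 CPM at 0 h. The groups overlapped, with a log2 fold change of -0.06 in HFD (-0.62 to 0.50) and -0.02 in chow (-0.55 to 0.52). These intervals leave room for changes of up to about 0.67 on the log2 scale in either marker.

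Cdk1, the kinase that starts mitosis, was low, with 2.37, 2.96 and 3.28 CPM in HFD with LPS and 4.16, 4.89 and 1.797 CPM in HFD at 0 h. The chow libraries held 3.80, 3.77 and 1.11 CPM with LPS, against 3.33, 3.32 and 3.08 CPM at 0 h. The groups overlapped in both diets, with -0.44 in HFD (-1.33 to 0.44) and -0.18 in chow (-1.05 to 0.69). Ccnb1, cyclin B1, was the lowest of the 43 per length of transcript, at 0.274 RPKM over all libraries, and had at most 1.119 CPM in any library. Its interval ran from -0.86 to 1.91 in HFD and from -1.17 to 1.38 in chow, so neither a rise nor a fall of ordinary size was detectable at this depth. The cyclins Ccna2 (-0.31 in HFD and 0.08 in chow) and Ccnb2 (-0.41 and -0.27) did not pass.

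None of the 16 genes of mitotic kinases, checkpoint, spindle, kinetochore and mitotic exit passed edgeR's test in either diet, while 1 in each had an unadjusted p under 0.05, and DESeq2 called 1, Kif23, in HFD. Their log2 fold changes ran down to -1.03 in HFD, for Kif23, and to -0.94 in chow, for Aurkb. Kif23, a motor of the central spindle, had 2.06, 1.46 and 2.54 CPM in HFD with LPS, against 4.68, 4.89 and 1.797 CPM at 0 h. In chow macrophages it showed 4.03, 2.24 and 4.06 CPM with LPS, against 4.75, 5.10 and 4.07 CPM at 0 h. The third HFD library at 0 h, the shallowest, fell among the LPS libraries, and the value in HFD missed the threshold (adjusted p = 0.053). Kif23 passed in HFD when that library was left out. Aurkb, the kinase of the chromosomal passenger complex, missed the threshold in chow (adjusted p = 0.0994). Over the 33 genes outside the G1 and E2F groups, summed CPM was 304, 288 and 349 in HFD with LPS, against 388, 377 and 338 in HFD at 0 h. In chow it was 342, 333 and 321 with LPS, against 413, 389.5 and 344 at 0 h. In chow the LPS libraries were the lower ones, by a narrow gap, and in HFD 1 library with LPS lay above 1 at 0 h. Pcna, already called lower, makes up a large part of these shifts. Its mean was 43.2 CPM in HFD with LPS, against 69.1 CPM at 0 h, and 51.2 CPM in chow with LPS, against 78.0 CPM at 0 h.

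**Figure D3:**
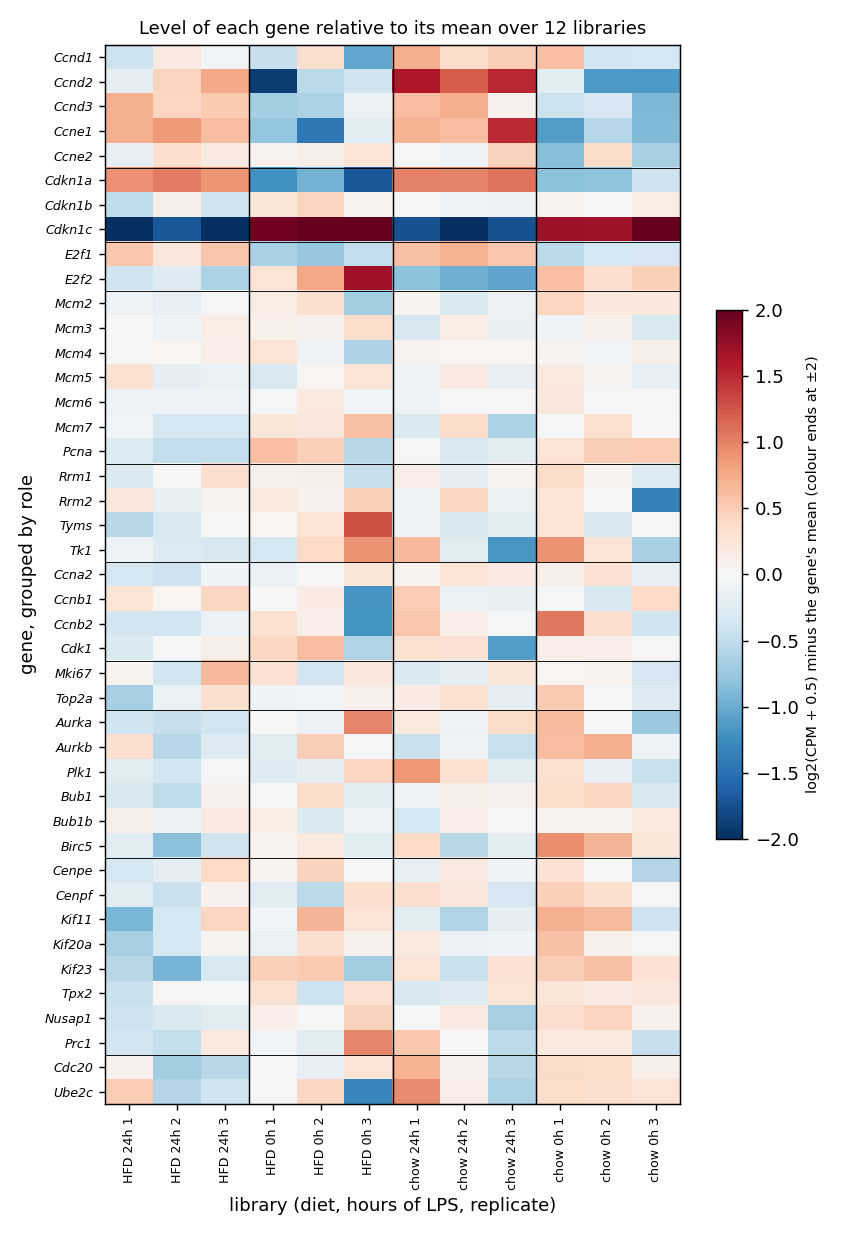
Each of the 43 genes (rows, by role) in each of the 12 libraries (columns), as log2(CPM + 0.5) minus the gene's mean over all libraries, with colours capped at 2. Cdkn1a, E2f1, Ccnd2, Ccnd3 and Ccne1 are high and Cdkn1c and E2f2 low in the 6 libraries with LPS. The replication and mitosis rows show no such step across both diets, though some are lower in every LPS library of 1 diet, such as Pcna in chow and Mcm7 in HFD.

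Further lists give the surroundings of these genes. In a list of 34 other S phase genes, of which 32 were tested, 3 fell and none rose in HFD and 4 fell and none rose in chow, with medians of -0.13 and -0.14. These counts are no larger a share than the 12% of all genes tested that were lower in HFD and the 12.9% in chow. The 34 genes summed to 331 to 384 CPM in HFD with LPS, against 390 to 410 CPM at 0 h. In chow the sum was 333 to 360 CPM with LPS, against 401.5 to 406.5 CPM at 0 h. Fen1, the nuclease that trims Okazaki fragments, fell in both diets, to 10.5 ± 1.6 CPM in HFD with LPS, against 22.3 ± 4.7 CPM at 0 h, and to 10.8 ± 2.2 CPM in chow with LPS, against 19.4 ± 2.7 CPM at 0 h (log2 fold change -1.07 ± 0.22, adjusted p = 0.00115, and -0.85 ± 0.21, adjusted p = 0.00549). Rfc2, of the complex that loads PCNA, also fell in both (-0.64 in HFD and -0.55 in chow). In a list of 38 other G2 and M genes, 2 rose and 4 fell in HFD, and 4 rose and 5 fell in chow, below the 24.6% and 26.6% of all genes called in either direction. The 38 genes summed to 715 to 772 CPM in HFD with LPS, against 795 to 820 CPM at 0 h. In chow the sum was 743 to 754 CPM with LPS, against 804 to 817 CPM at 0 h. Cenpa, the centromeric histone variant, fell to 4.08 ± 1.1 CPM in HFD with LPS, against 14.4 ± 5.9 CPM at 0 h (-1.85 ± 0.31, adjusted p = 0.000206), and to 4.04 ± 1.2 CPM in chow with LPS, against 13.6 ± 1.6 CPM at 0 h (-1.76 ± 0.31, adjusted p = 0.00029). Psrc1, a spindle-associated protein that p53 is known to control, rose in both diets (1.37 and 1.56). With the L008 tag as a covariate, none of the 38 passed in chow.

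Among 30 other control genes, none rose and 5 fell in HFD, and 1 rose and 3 fell in chow, again below the 24.6% and 26.6% of all genes called. Skp2, of the ubiquitin ligase that marks p27 for breakdown, fell in both diets (-0.77, adjusted p = 0.0344, in HFD and -1.02, adjusted p = 0.00496, in chow), as did Tfdp2, a partner of the E2F factors (-0.85 and -0.89). Myc fell in HFD (-0.95, adjusted p = 0.019) and stood at -0.22 in chow (adjusted p = 0.611), a difference between the diets of -0.73 that did not pass the test (adjusted p = 1). Rbl1, the retinoblastoma relative p107, rose in chow (0.75, adjusted p = 0.0167). Among 16 p53 target and antiproliferative genes, 6 rose and 5 fell in HFD and 3 rose and 5 fell in chow, a larger share than the 24.6% and 26.6% of all genes. Mdm2, which is induced by p53 and degrades it, rose in both (1.03 in HFD and 1.04 in chow), as did Btg1 (1.40 and 1.25), while the p53 targets Sesn1 (-2.40 and -2.48) and Gadd45a (-1.54 and -1.37) fell in both. The list was therefore mixed in direction, and Cdkn1a shared its direction with Mdm2 and not with Sesn1 or Gadd45a.

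Replication-dependent histone genes, which are transcribed mainly in S phase, fell where they changed. Of 65 listed, 47 were tested: 13 fell in HFD and 8 in chow, and none rose, with medians of -1.06 and -0.82. Of all genes tested, 12% were lower in HFD and 12.9% in chow, and the share of histone genes in chow was close to that. H1f3 fell to 15.9 ± 2.2 CPM in HFD with LPS, against 46.9 ± 18 CPM at 0 h (-1.52 ± 0.25, adjusted p = 0.000207), and to 13.04 ± 3.9 CPM in chow with LPS, against 30.2 ± 3.1 CPM at 0 h (-1.22 ± 0.25, adjusted p = 0.00136). Their sum was 562, 440.0 and 304 CPM in HFD with LPS, against 743, 786 and 851 CPM at 0 h, and 499, 563 and 318 CPM in chow with LPS, against 688, 698 and 659 CPM at 0 h. All LPS libraries lay below all libraries at 0 h, and the third LPS library of each diet was the lowest. Many of these genes are near-identical copies that can share reads, so single members are uncertain, and the sources used here do not say how reads were assigned to them.

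**Figure D4:**
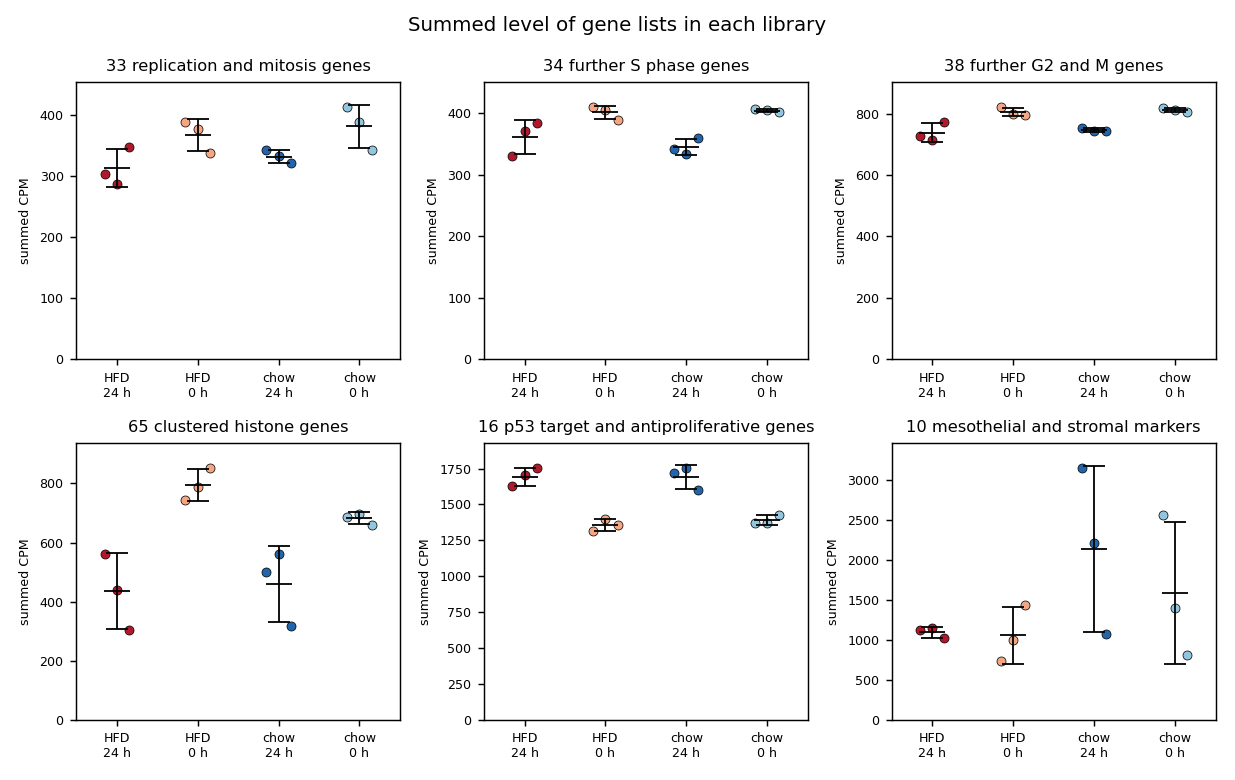
Summed CPM per library of 6 gene lists, each axis from 0, with the mean and SD of each group. The S phase, the G2 and M and the clustered histone lists are lower in every LPS library than in any at 0 h, by the widest gap for the histones. The 33 replication and mitosis genes sit slightly lower with LPS, with overlap in HFD, and Pcna makes up a large part of that shift. The mesothelial and stromal markers vary most within chow.

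Diet was the second comparison of the study, and it gave no call among these genes. At 0 h, 0 of the 43 differed between HFD and chow, beside 0.0870% of all genes tested. At 24 h of LPS 0 of the 43 differed, beside 0.00791%. The response to LPS differed between HFD and chow in 0 of the 43, beside 0.00%. At an unadjusted p under 0.05 there were 1, 4 and 0 of the 43 in the 3 comparisons, beside 6.15%, 7.86% and 2.35% of all genes, and DESeq2 and limma-voom called 0 in each.

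The smallest p at 0 h was that of Cdkn1a. The values given above put all 3 HFD libraries at 0 h, at 41.3 to 69.4 CPM, below all 3 chow libraries at 0 h, at 75.7 to 100.5 CPM. The log2 difference was -0.56 ± 0.16 (95% interval -0.90 to -0.21, unadjusted p = 0.0034, adjusted p = 0.403). With LPS the HFD and chow libraries for Cdkn1a overlapped, and the difference in LPS response was 0.47 ± 0.23 (unadjusted p = 0.0529, adjusted p = 1).

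The smallest p with LPS was that of Ccnd2. All 3 HFD libraries with LPS, at 10.04 to 19.6 CPM, lay below all 3 chow libraries with LPS, at 27.2 to 35.7 CPM. The log2 difference was -1.08 ± 0.32 (-1.77 to -0.39, unadjusted p = 0.00453, adjusted p = 0.444). Ccnd1 leaned the same way with LPS, at -0.64 ± 0.30 (adjusted p = 0.63), as did Ccna2 at -0.47 and Kif23 at -0.77. The stromal marker sums leaned the same way between these groups, with overlap, at 1020 to 1149 CPM in HFD with LPS and 1071 to 3146 CPM in chow with LPS, and their part in these values was not tested. The L008 tag, on all 3 chow libraries with LPS and on 1 HFD library with LPS, also follows diet in part here. With the tag as a covariate, 0 of the 43 differed by diet at 24 h. For the other genes the intervals show what size of diet difference the data leave room for. Mki67 stood at 0.24 with LPS (-0.28 to 0.76) and at 0.11 at 0 h (-0.43 to 0.66). Mcm6, with the tightest interval, stood at -0.05 with LPS (-0.32 to 0.22) and at -0.03 at 0 h (-0.31 to 0.24).

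**Figure D5:**
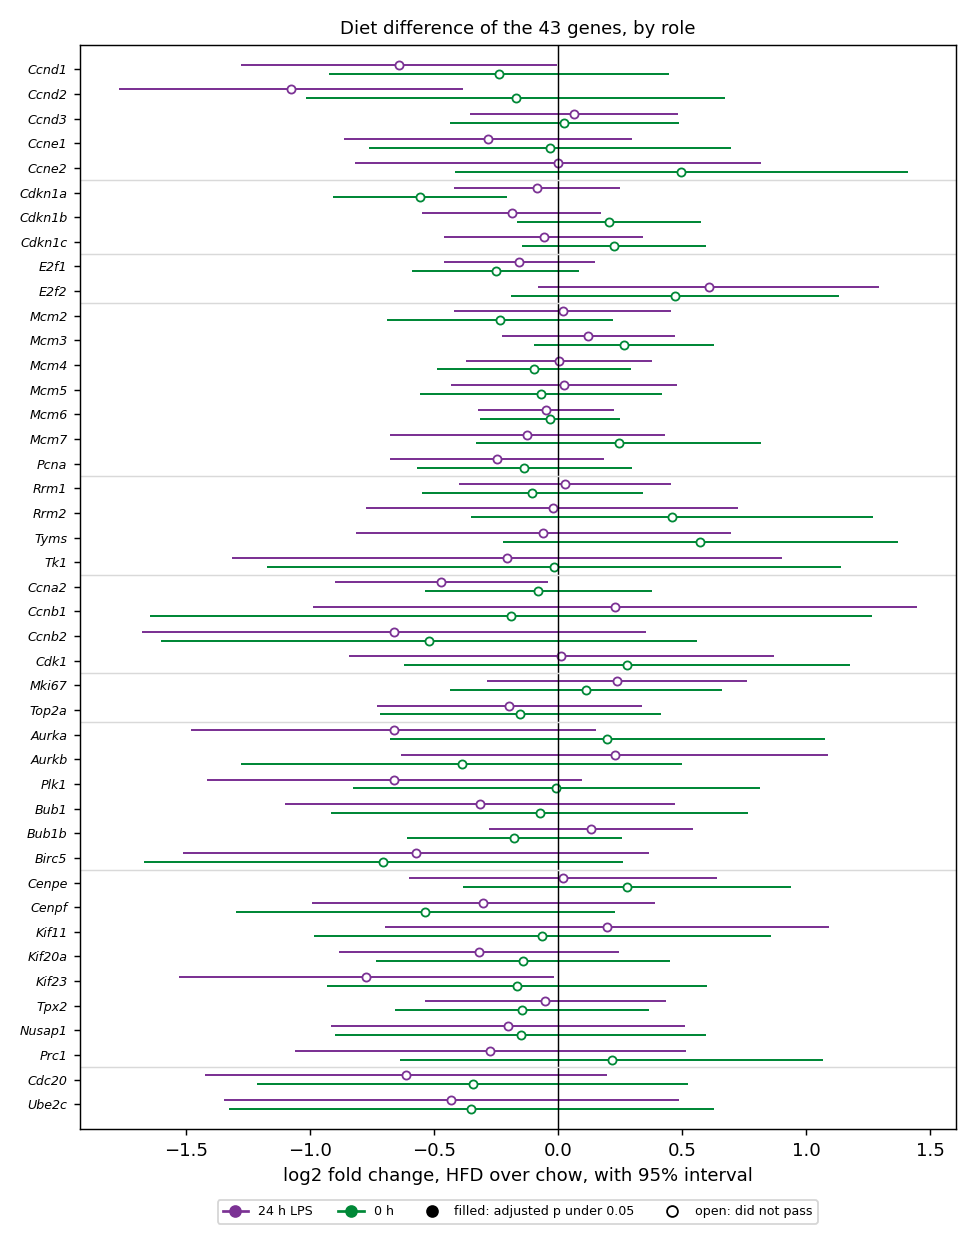
Log2 fold change of HFD over chow for each of the 43 genes, with its 95% interval, with 24 h of LPS and at 0 h. All points are open because none passed an adjusted p of 0.05, and the intervals of Ccnd2 with LPS (-1.77 to -0.39) and Cdkn1a at 0 h (-0.90 to -0.21) lie farthest from 0.

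Reads of some of these genes may include those of a neighbour. The sources used here do not give the strand setting of the counting, and 15 of the 43 share exon bases with another gene in the GENCODE annotation of GRCm38. The overlap covers 30.3% of the exon bases of Cdkn1c (with Gm44732), 14.8% of Ccnd3 (with Bysl), 10% of Cdkn1a and 5.54% of Ccnd2 (with Gm43126), all on the opposite strand. Among genes that did not pass the main test, it covers 31.8% of Kif20a (with Cdc23) and 22.8% of Ube2c (with Tnnc2). It also covers 21.9% of Ccnd1 (with LTO1) and 21.8% of Prc1 (with Rccd1), again on the opposite strand. If the counting ignored the strand, reads in the shared bases of a gene and its antisense partner cannot be told apart.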

How the data were processed

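Libraries of total RNA were made with the NuGen Ovation Universal RNA-seq kit after extraction with a Qiagen RNeasy mini kit, per the labels' protocols. CASAVA 1.8.2, STAR 2.5.2b and the mm10 build are named in the submitters' processing notes. The sources used here do not give the counting program, the annotation or the strand setting. The deposited table holds raw counts per RefSeq transcript, 35745 rows in 12 sample columns, with 0 columns unused. Symbols came from a RefSeq table of the mouse genome for 35440 rows and from GENCODE for 188, and 117 had none. For the 6089 genes with more than 1 row, the row with the highest mean was kept.

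Counts were tested with edgeR 4.0.16 (R 4.3.3): TMM scaling, filterByExpr by group with a minimum count of 10, and the robust quasi-likelihood test in one model of the 4 group means, with Benjamini-Hochberg adjustment over 12641 genes and a threshold of 0.05. Standard errors and 95% intervals were derived from the F statistic. TMM factors ran from 0.943 to 1.05, the common biological coefficient of variation was 18%, and the lowest Spearman correlation within a group was 0.959. CPM values are TMM-scaled, and RPKM divides them by GENCODE transcript length. The script was tested on simulated counts. DESeq2 1.42.0 and limma 3.58.1 were alternatives, as were other scaling, no filter, separate fits, the L008 tag, replicate blocks and leaving out each library. The 43 genes and the other lists were chosen with earlier results of these data known. Genes named from the other lists were up to 4 with the smallest adjusted p per comparison; values per library were given for genes that passed and for a set of standard cell cycle genes.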

Additional observations from a re-analysis of the deposited data

How the results depend on the processing

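Over 23 alternatives, the number of the 43 genes higher after LPS ran from 4 to 5 in HFD and from 4 to 6 in chow, and the number lower from 2 to 5 in HFD and from 1 to 3 in chow. None of the called genes changed sign. With the L008 tag as a covariate 1 gene was lower in chow, Cdkn1c. Leaving out 1 library at a time gave 2 to 5 genes lower in HFD, with 2 without the first or the second library at 0 h or the third with LPS, where Cdkn1b and Pcna were lost. The number called by diet, or in the difference between LPS responses, was 0 in each of 22 alternatives. For the histone genes, 13 were lower in chow without the third HFD library at 0 h, 11 in chow and 18 in HFD with upper-quartile scaling, and 6 in chow and 19 in HFD with the tag covariate. Libraries carrying the same number within a diet had deviations correlated at 0.029 to 0.346, over 0.1 in 3 of 6 pairs, so the numbers were not taken to pair the samples, although 9 of 12 libraries correlated best with their own number. With the number as a replicate block, 5 genes were higher and 4 lower in HFD and 5 higher and 3 lower in chow, and no call was lost. Upper-quartile scaling moved the median of all genes by -0.076 in HFD and -0.064 in chow, and put 1392 of 3234 called genes higher in HFD and 1499 of 3361 in chow, against 1605 of 3116 and 1729 of 3357. The third HFD library at 0 h, the shallowest, limits what can be said of the lowest mitotic genes in HFD.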
